A study of Homo sapiens with 64 samples.

Results

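Indacaterol was added to BEAS-2B cells whose phosphodiesterase 4 (PDE4) was inhibited, and gene expression was read after 6 h. BEAS-2B is an immortalised human airway epithelial line. The comparison holds 8 of the 64 arrays of the series: 4 from cells given 10 nM indacaterol together with 10 nM GSK 256066 (Ind+GSK), and 4 from cells given 10 nM GSK 256066 alone (GSK). Arrays were taken by their titles, with no measured value used. PDE4 inhibition was thus common to both groups, and only indacaterol differed. Indacaterol alone against vehicle at 6 h, and the same Ind+GSK against GSK comparison at 1, 2 and 18 h, use other arrays and are cited for reference. As described by the submitters, every culture was of the one cell line in serum-free keratinocyte medium, with no donor cells named. Keratin signals in replicate 3 were unlike those of the other replicates, as given below.

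Indacaterol is a long-acting bronchodilator that acts through a G protein-coupled receptor to activate adenylyl cyclase and raise cyclic AMP (cAMP). cAMP activates protein kinase A, which phosphorylates the transcription factor CREB, and CREB acts at cAMP response elements in promoters. PDE4 enzymes degrade cAMP, and GSK 256066 is a selective inhibitor of that family. Many immediate early CREB targets respond briefly, and several CREB targets encode phosphodiesterases or kinases that restrain the pathway.

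The promoters shown here belong to the strongly rising genes PDE7B, LINC00473 and GALNT15, because they hold letters of the cAMP response element. Each is 300 bases from RefSeq (GRCh38.p14), from 250 bases before to 50 after the transcript start, read in the direction of the gene. Capitals mark the full palindrome TGACGTCA or its core TGACG on either strand (CGTCA when read in this direction). PDE7B lies at chr6:135851451-135851750 (plus strand), LINC00473 at chr6:165987990-165988289 (minus strand) and GALNT15 at chr3:16174430-16174729 (plus strand).
PDE7B: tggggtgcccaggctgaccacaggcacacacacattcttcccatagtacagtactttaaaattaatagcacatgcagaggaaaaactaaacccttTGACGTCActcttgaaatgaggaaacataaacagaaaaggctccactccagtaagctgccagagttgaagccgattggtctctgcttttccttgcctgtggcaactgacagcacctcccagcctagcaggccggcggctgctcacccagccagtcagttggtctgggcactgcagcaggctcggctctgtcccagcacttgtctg
LINC00473: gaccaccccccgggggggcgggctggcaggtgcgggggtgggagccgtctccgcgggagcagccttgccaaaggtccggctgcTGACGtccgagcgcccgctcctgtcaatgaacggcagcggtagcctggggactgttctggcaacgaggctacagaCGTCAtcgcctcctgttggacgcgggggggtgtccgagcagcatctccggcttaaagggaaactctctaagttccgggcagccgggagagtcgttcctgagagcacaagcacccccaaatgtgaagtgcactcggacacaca
GALNT15: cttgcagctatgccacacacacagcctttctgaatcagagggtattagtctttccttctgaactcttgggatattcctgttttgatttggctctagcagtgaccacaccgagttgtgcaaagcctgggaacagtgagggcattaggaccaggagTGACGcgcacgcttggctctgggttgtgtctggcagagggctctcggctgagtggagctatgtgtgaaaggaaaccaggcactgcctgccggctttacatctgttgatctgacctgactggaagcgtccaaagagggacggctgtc
The full palindrome of PDE7B starts at position -155 from the transcript start, and the 2 overlapping cores are part of it. LINC00473 holds separate cores at positions -167 and -92, and GALNT15 holds 1 core at position -96. The promoter entries of CRISPLD2, STEAP4 and C5AR1 hold neither. No promoter entry was held for CSGALNACT1 and SLC7A2, which are also among the greatest rises, so their promoters were not examined. Over the 15384 tested genes with an entry, 2.67% hold the palindrome and 29.7% hold a core. Among the 46 called rises with an entry, 2 hold the palindrome (PDE7B and TAF4B) and 12 hold a core (26.1%). Among the 15 called falls with an entry, 2 hold the palindrome (ZNF143 and RBM12) and 10 hold a core (66.7%). A match describes the letters of this window only.

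Values are probe-set signals as the authors deposited them, and changes are differences of mean log2(signal + 16), which understates the change of dim genes. Each is given with its SE from one limma fit over all arrays (n = 4 per group), and a gene was called at a Benjamini-Hochberg adjusted p under 0.05 over 19775 genes. Median signal on the 8 arrays ran from 115.6 to 123.0. The epithelial keratin KRT8 had signals of 4576 to 6266 on Ind+GSK arrays and 5061 to 6333 on GSK arrays, while the epithelial adhesion gene EPCAM reached at most 155.7 on Ind+GSK arrays and 168.4 on GSK arrays. VIM, a mesenchymal filament gene, had 9928 to 11440 on Ind+GSK arrays and 10300 to 11670 on GSK arrays, so signal of both marker classes was present in both groups. Replicate 3 stood apart from the other arrays in both groups: 112 genes exceeded the other replicates there by 4-fold or more and 12 fell short by as much, with no overlap, and none of these was called. The basal keratin gene KRT14 had 31.72, 29.16, 344600 and 20.67 on the Ind+GSK arrays of replicates 1 to 4, against 20.55, 20.24, 377200 and 26.04 on the GSK arrays, and KRT5, its partner in basal cell filaments, had 35120 in replicate 3 of Ind+GSK and 34310 in that of GSK, against at most 221.5 on the other Ind+GSK arrays and 190.2 on the other GSK arrays. The replicate 3 cells thus had keratin signals unlike those of the other replicates under the same cell line label. The main counts of calls and some single changes are given without replicate 3 too. Whether replicates came from separate cultures is not stated in the labels, so a p-value here measures only the spread among these arrays, which may be technical. Same-numbered arrays deviated together from their group means (correlations of 0.16, 0.50, 0.76 and 0.53 for replicates 1 to 4). Some arrays of different number did so as much: Ind+GSK replicate 4 with GSK replicate 2 (0.65), Ind+GSK replicate 2 with GSK replicate 4 (0.60) and Ind+GSK replicate 1 with GSK replicate 3 (0.13). The labels do not say what the numbers mark, and results with replicate number as a block are given where they change a call.

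After 6 h 71 genes (0.359% of those tested) were called, 55 higher (0.278%) and 16 lower (0.0809%) in Ind+GSK cells than in GSK cells. The rises were the greater changes: 17 genes rose 2-fold or more, while 0 fell as far. They were led by CSGALNACT1, a glycosyltransferase that starts chondroitin sulfate chains, CRISPLD2, a secreted glucocorticoid-inducible protein, and LINC00473, a CREB-responsive non-coding RNA. The falls were led by the immediate early transcription factor EGR1 and included MVD and MVK, enzymes of the mevalonate pathway to sterols. With the replicate block 606 genes (3.06%) were called, 377 higher (1.91%) and 229 lower (1.16%), and all 71 were among them. Without replicate 3 the count was 87 (67 higher, 20 lower; 0.44%), of which 46 were shared with the 71, and the block without replicate 3 gave 291 (1.47%), 200 higher (1.01%) and 91 lower (0.46%). Quantile normalization gave 156 calls (0.789%), 98 higher and 58 lower, which included all 71. Of the 30 named rises and falls, 15, 19, 8 and 14 lost their call without replicates 1, 2, 3 and 4, with no change of sign.

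CSGALNACT1 changed most. Its signals were 1598, 678.3, 1229 and 903.1 on the Ind+GSK arrays of replicates 1 to 4, against 155.8, 151.5, 99.52 and 131.1 on the GSK arrays. Every Ind+GSK value lay above every GSK value, as for 807 genes in either direction (4.08% of those tested), and the gene rose by 2.84 ± 0.25 (adjusted p = 4.34e-11). CRISPLD2 had 4012, 2119, 1688 and 1873 in Ind+GSK cells and 577, 340.1, 273.5 and 278.1 in GSK cells, a rise of 2.65 ± 0.37 (adjusted p = 9.79e-06). Replicate 1 was highest in both groups, and the difference within replicate numbers was narrow, at 2.56 to 2.76. A dimmer second probe set gave 0.08 for CSGALNACT1 and 0.08 for CRISPLD2, both short of a call, so these 2 rises rest on the brightest probe set.

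LINC00473 had signals of 792.3, 683.1, 440.2 and 578.8 in Ind+GSK cells against 262.3, 210.3, 88.95 and 132.8 in GSK cells, without overlap. It rose by 1.82 ± 0.33 (adjusted p = 0.00108). The LINC00473 call was lost without replicates 2 and 4 (adjusted p = 0.0617 and 0.139) and with the 16 arrays at 6 h alone. PDE7B, a cAMP-specific phosphodiesterase outside the PDE4 family, had 562.1, 419.8, 483.9 and 486.3 in Ind+GSK cells against 201.2, 121, 182.8 and 104.2 in GSK cells. It rose by 1.62 ± 0.22 (adjusted p = 9.01e-06), and its other probe sets rose by 0.69 and 1.52. These are 2 of the genes whose promoters are printed above. GALNT15, also printed above, which starts mucin-type O-glycans, had 1718, 524.1, 1410 and 628.3 in Ind+GSK cells against 363.8, 255.4, 248.6 and 255.8 in GSK cells. Replicates 1 and 3 were the high ones among the Ind+GSK arrays. GALNT15 rose by 1.71 ± 0.26 (adjusted p = 5.54e-05), with 1.65 and 1.38 in its other probe sets.

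**Figure D1:**
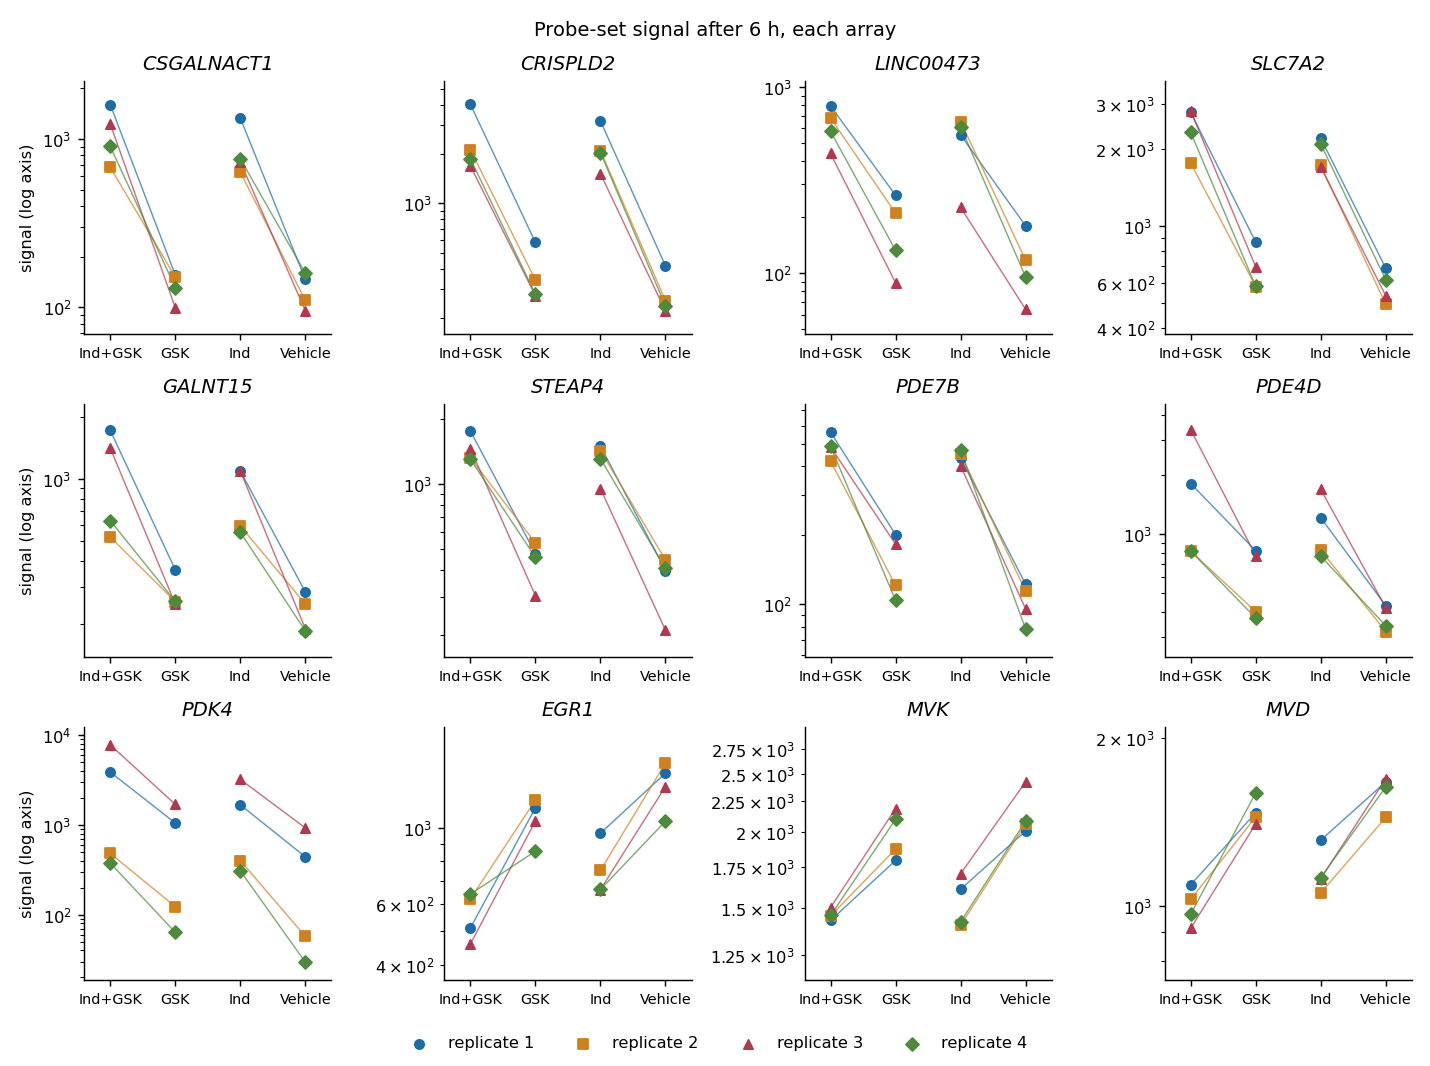
Probe-set signal (log axis) on each array after 6 h for 12 genes, by group (Ind+GSK, GSK, indacaterol alone and vehicle); each marker is 1 array and lines join arrays of the same replicate number. For CSGALNACT1 the 4 Ind+GSK arrays sit between 678.3 and 1598, all above the GSK arrays, while PDK4 and PDE4D split by replicate number and MVK, MVD and EGR1 are lower with indacaterol.

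SLC7A2, a carrier of arginine and other cationic amino acids, had 2786, 1763, 2818 and 2327 in Ind+GSK cells against 865.8, 581, 693.7 and 581.6 in GSK cells. It rose by 1.80 ± 0.19 (adjusted p = 1.21e-08), with the smallest SE of the 7 greatest rises. A dim second probe set rose by 0.95 and the dimmest gave 0.03, short of a call. STEAP4, a metalloreductase, had 1766, 1323, 1458 and 1306 in Ind+GSK cells against 475.5, 533.4, 303.6 and 457.2 in GSK cells, and rose by 1.71 ± 0.30 (adjusted p = 0.00091). The STEAP4 call was lost without replicate 1 (adjusted p = 0.0932). SLC16A14, a member of the monocarboxylate transporter family, rose by 1.11 ± 0.20 (adjusted p = 0.000933), with signals of 3707 to 9117 in Ind+GSK cells and 2111 to 3380 in GSK cells. The SLC16A14 call was lost without replicate 1 (adjusted p = 0.136) and with the 16 arrays at 6 h alone. KCNG1, a modifier subunit of voltage-gated potassium channels, rose by 1.02 ± 0.14 (adjusted p = 9.01e-06), which a dimmer probe set (0.04) did not share.

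C5AR1, the receptor for the complement fragment C5a, had 300.2, 196.8, 227.7 and 172.7 in Ind+GSK cells against 114.7, 71.05, 88.65 and 41.47 in GSK cells, a rise of 1.37 ± 0.31 (adjusted p = 0.0216). CNR1, a cannabinoid receptor that couples to inhibition of adenylyl cyclase, had 1140, 1315, 1793 and 2014 in Ind+GSK cells against 657.2, 653.3, 645.1 and 756.3 in GSK cells, a rise of 1.15 ± 0.25 (adjusted p = 0.0153). The C5AR1 change was 1.26 to 1.43 with 1 replicate number left out, and its call was lost each time (adjusted p = 0.0786 to 0.267). The CNR1 change was 1.06 to 1.28, and its call was lost without replicates 1, 2 and 3 (adjusted p = 0.101, 0.114 and 0.268). The 3 dimmer probe sets of CNR1 gave 0.22 to 0.39, short of a call. IGF1R, the receptor for insulin-like growth factors, had 1447, 1228, 2540 and 1303 in Ind+GSK cells against 937.1, 791.6, 742 and 544.5 in GSK cells. It rose by 1.06 ± 0.18 (adjusted p = 0.000574), and 3 of its 4 other probe sets rose as well, by 1.06, 1.13 and 0.69. Replicate 3 was the highest Ind+GSK array, and without that replicate number the IGF1R change was 0.83 (adjusted p = 0.00717). The ephrin receptor EPHA5 was dim, at 118.8 to 155.1 in Ind+GSK cells and 44.34 to 62.8 in GSK cells, and rose by 1.09 ± 0.15 (adjusted p = 1.07e-05), while its still dimmer probe sets gave -0.11 and 0.39, short of a call.

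WNT4, a secreted Wnt ligand, had 2555, 1728, 811.7 and 1660 in Ind+GSK cells against 616.6, 517, 736.2 and 642.6 in GSK cells. The groups did not overlap, but replicate 3 differed by 0.14 where replicate 1 differed by 2.02. The gene rose by 1.30 ± 0.26 (adjusted p = 0.00416), and its dimmer probe sets gave 0.43 and -0.08, short of a call. The WNT4 call was lost without replicates 1, 2 and 4 (changes of 1.07, 1.17 and 1.29, adjusted p = 0.246, 0.163 and 0.141), without the Ind+GSK array of replicate 1 alone (adjusted p = 0.0799), with the mean of probe sets (0.55) and with the 16 arrays at 6 h alone. TANC2, a scaffold protein, rose by 1.01 ± 0.21 (adjusted p = 0.00757), and its dimmer probe sets gave 1.08 and -0.30, short of a call. The TANC2 call was lost without replicates 1, 2 and 4 (adjusted p = 0.101, 0.143 and 0.261) and with the mean of probe sets. ITPR1, the inositol trisphosphate receptor that releases calcium from stores, rose by 0.88 ± 0.15 (adjusted p = 0.000384), and CSNK1E, a casein kinase, by 0.93 ± 0.16 (adjusted p = 0.000574). NPC1, which exports cholesterol from lysosomes, rose by 0.71 ± 0.12 (adjusted p = 0.000613), with 4085 to 5590 in Ind+GSK cells and 2480 to 3053 in GSK cells. The CSNK1E call was lost without replicate 1 (adjusted p = 0.113) and the NPC1 call without replicate 4 (adjusted p = 0.0598).

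The falls were smaller, and all 16 lay between -0.23 and -0.91. EGR1 had signals of 511.3, 621.9, 459.1 and 642.2 in Ind+GSK cells, against 1148, 1209, 1050 and 857.3 in GSK cells. It fell by 0.91 ± 0.19 on the log2 scale (adjusted p = 0.00668), with -1.06 in its second probe set and -0.26, short of a call, in its dimmest. The EGR1 call was lost without replicate 2 (-0.91, adjusted p = 0.225) and without replicate 3 (-0.83, adjusted p = 0.169). C1orf198 had 1398, 1322, 1086 and 1527 in Ind+GSK cells and 2128, 1962, 1809 and 1958 in GSK cells, a change of -0.56 ± 0.10 (adjusted p = 0.000574). The transcription factor ZNF143 changed by -0.45 ± 0.08 (adjusted p = 0.000613), and its dimmer probe set gave 0.03, short of a call. The ZNF143 call was lost without replicate 2 (adjusted p = 0.0668), with the mean of probe sets and with the 16 arrays at 6 h alone. The phosphate transporter SLC20A2 (-0.52) and the dynein regulator NDE1 (-0.51) were also called, but their other probe sets gave 0.05 and -0.22 for SLC20A2 and -0.04 to 0.25 for NDE1, all short of a call. The remaining named falls were LOC730101 (-0.52), PCYT2 of phosphatidylethanolamine synthesis (-0.37), PRXL2C (-0.32), RRAGC, a Rag GTPase upstream of mTOR (-0.32), PIAS3, a SUMO ligase (-0.27), TMEM126A (-0.24) and the adhesion protein gene VCL, vinculin (-0.23). The calls of PCYT2, RRAGC, PIAS3 and TMEM126A were lost with any 1 replicate number left out, and that of PIAS3 with any single array left out.

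The shares called over all genes, 0.359% and 3.06% with the block, are the background for the gene lists that follow. Over all genes 9883 changes were positive and 9892 negative. Lists and members were chosen with earlier results of these data known, so counts of signs and calls within a list are descriptions and not independent tests. Of 26 measured sterol and fatty acid synthesis genes 25 had a negative change, 2 fell (MVK and MVD) and 0 rose. The list's median was -0.18, against -4.6e-05 over all genes. MVK had 1428, 1453, 1500 and 1455 in Ind+GSK cells against 1795, 1875, 2188 and 2100 in GSK cells, and fell by 0.44 ± 0.08 on the log2 scale (adjusted p = 0.00218). Its Ind+GSK replicates differed little from each other, and 2 further probe sets gave -0.74 and -0.87, while the dimmest gave 0.14, short of a call. MVD had 1093, 1029, 913.8 and 968.6 in Ind+GSK cells against 1469, 1445, 1404 and 1594 in GSK cells, and fell by 0.56 ± 0.13 (adjusted p = 0.0234). The MVD call was lost without replicates 1, 2 and 4 (changes of -0.60, -0.58 and -0.50, adjusted p = 0.182, 0.225 and 0.261) and with 5 of the 8 single arrays left out, and the MVK call was lost without replicates 2 and 4 (adjusted p = 0.0706 and 0.162). MMAB, a cobalamin enzyme gene outside the list that shares a bidirectional promoter with MVK, changed by -0.43 ± 0.09 (adjusted p = 0.00549). This call was lost without replicates 2, 3 and 4 and with the mean of probe sets, and the dimmer MMAB probe sets gave -0.07 and -0.07, short of a call. With the block 9 of the 26 were lower and 0 higher (5 and 0 without replicate 3). The others were LSS (-0.44) and NSDHL (-0.40), which act in sterol synthesis after squalene, SREBF1 (-0.36), a transcription factor of lipid synthesis, HSD17B7 (-0.31), HMGCS1 (-0.30), TM7SF2 (-0.23) and SQLE (-0.18). At 2 h the list's median was 0.043 and 0 of 26 were called, on other arrays.

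Of 27 measured CREB targets 24 had a positive and 3 a negative change, with a median of 0.43, and 2 rose (LINC00473 and PDE7B) and EGR1 fell. With the block 11 were higher and 1 lower (8 and 1 without replicate 3). NR4A2, an immediate early nuclear receptor, had 1285, 231.3, 1879 and 219.7 in Ind+GSK cells and 199.2, 104.9, 195.9 and 83.08 in GSK cells. Replicates 1 and 3 were high within each group, and the change of 2.01 ± 0.75 passed with the block alone (adjusted p = 0.0025, and 0.462 without it). The same held for SIK1, a kinase that restrains CREB coactivators, at 1.29 ± 0.38 (adjusted p = 3.87e-06 with the block and 0.181 without), and for NR4A3, with a change of 1.43 ± 0.58 (block adjusted p = 0.0154, against 0.562). RGS2, an inhibitor of G protein signalling, had a change of 1.00 ± 0.28 (block adjusted p = 9.34e-05, against 0.118). FOS (0.72), CREM (0.16) and PDE4B (0.23) passed in neither fit. PER1 and AREG were not analysed here.

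Of 55 measured cAMP pathway components, 1 rose (PDE7B) and 0 fell, with a median of 0.064, and with the block 6 were higher and 0 lower (5 and 0 without replicate 3). PDE4D, one of the enzymes that GSK 256066 inhibits, had 1800, 815.7, 3384 and 816 in Ind+GSK cells against 820, 401.6, 772.1 and 373 in GSK cells. Each replicate number was higher with indacaterol, by 0.99 to 2.11, while the groups overlapped because replicates 2 and 4 were low in both. The change of 1.33 ± 0.44 passed with the block alone (adjusted p = 8.81e-06, and 0.31 without it). The dimmer PDE4D probe sets gave 0.17, 1.52, 1.06, 1.00 and 0.24, all short of a call without the block. PDE4A (0.02) and PDE4B (0.23) passed in neither fit, and PDE4C was not analysed here. PDE3A, another phosphodiesterase, had 1148, 1529, 1086 and 1801 in Ind+GSK cells against 468.5, 853.4, 278.4 and 776.8 in GSK cells, a change of 1.30 ± 0.50 that also passed with the block alone (adjusted p = 2.59e-08, and 0.492 without it). SIK1, SIK2 (0.56) and the kinase anchor AKAP12 (0.54) were the others.

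All 23 measured glucocorticoid-inducible genes had a positive change, with a median of 0.31. Of these 1 rose (CRISPLD2) and 0 fell, and with the block 11 were higher and 0 lower (9 and 0 without replicate 3). PDK4, a kinase that inhibits pyruvate dehydrogenase, had 3890, 482.6, 7834 and 376.6 in Ind+GSK cells against 1053, 123.3, 1699 and 63.62 in GSK cells. Replicates 1 and 3 were high and 2 and 4 low within each group, so that the groups overlapped, but the difference within replicate numbers was 1.84 to 2.30. The change of 2.05 ± 1.47 passed with the block (adjusted p = 3.75e-09) and not without it (adjusted p = 1). CDKN1C, a cell cycle inhibitor, had 2190, 775.2, 4099 and 805.2 in Ind+GSK cells against 785.3, 375.2, 1228 and 326.8 in GSK cells, a change of 1.37 ± 0.62 (adjusted p = 0.00136 with the block and 0.725 without). The transcription factor CEBPD had a change of 0.64 ± 0.17 (block adjusted p = 3.92e-08, against 0.0835). SGK1 (0.72), KLF15 (0.66), ZBTB16 (0.49), DUSP1 (0.43), CDKN1A (0.41), CEBPB (0.32) and RGS2 were the others, while FKBP5 (0.06) and TSC22D3 (0.16) passed in neither fit. DUSP1 and RGS2 are also CREB targets in the lists used.

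**Figure D2:**
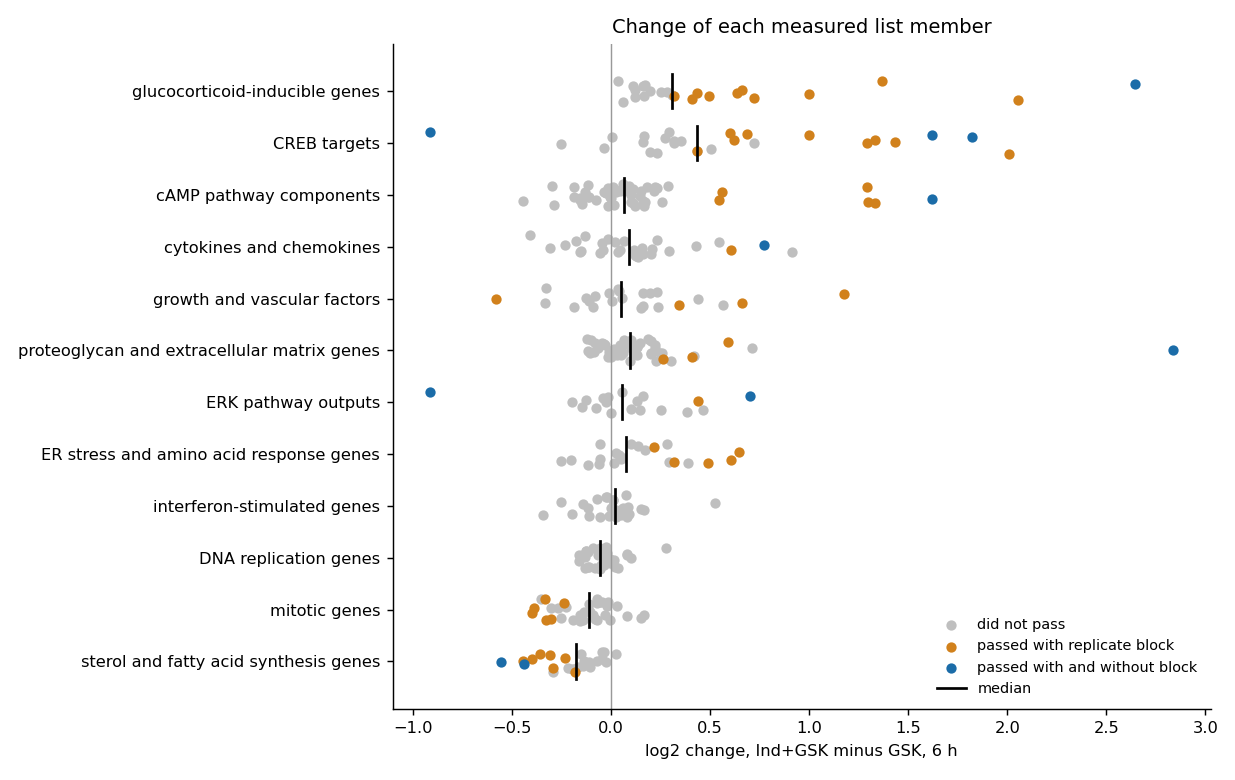
Log2 change at 6 h (Ind+GSK minus GSK) of each measured member of 12 gene lists; colours show whether the gene passed in both fits, with the replicate block alone or in neither, and black bars are medians. All 23 glucocorticoid-inducible genes lie above 0 and 25 of the 26 sterol and fatty acid genes below it. The lists were chosen with earlier results of these data known.

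Most other lists gave few calls. Of 30 cytokines and chemokines 1 rose, IL15 (0.77 ± 0.17, adjusted p = 0.0192), which supports lymphocytes. The call was lost with any 1 replicate number left out (changes of 0.60 to 0.91, adjusted p = 0.0706 to 0.209). IL6 had 479.9, 185.9, 369.9 and 104.3 in Ind+GSK cells against 149.4, 154.7, 93.85 and 102.9 in GSK cells, so that replicates 2 and 4 were nearly level, and its change of 0.91 ± 0.47 passed in neither fit. CXCL8 had a change of -0.05. With the block CCL2 (0.61) was the other member called.

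Of 48 proteoglycan and matrix genes 1 rose, CSGALNACT1, and the list's median was 0.093. CSGALNACT2, the closest relative of CSGALNACT1, had a change of 0.23 ± 0.19 and passed in neither fit. With the block CHSY1 (0.41), which extends chondroitin chains, VCAN (0.59), which encodes the chondroitin sulfate proteoglycan versican, and SDC4 (0.26), a cell surface proteoglycan, were higher too. Of 24 growth and vascular factors 0 were called, and with the block BMP2 (1.18), GDF15 (0.66) and VEGFC (0.34) were higher and BMP4 (-0.58) lower. Of 19 ERK pathway outputs, DUSP4, a phosphatase of ERK, rose by 0.70 ± 0.14 (adjusted p = 0.00376) and EGR1 fell, and with the block MYC (0.44) was higher too. The DUSP4 call was lost without replicates 1 and 4 (adjusted p = 0.147 and 0.0794), and its other probe sets gave 0.29 and 0.72, short of a call.

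Of 34 mitotic genes 30 had a negative change, with a median of -0.11 and 0 called. With the block 6 were lower, among them MKI67 (-0.39), the proliferation marker Ki-67, DLGAP5 (-0.40) and CCNB2 (-0.34), and without replicate 3 the block left 1 lower. None of 30 DNA replication genes passed in either fit. Of 22 genes of the endoplasmic reticulum stress and amino acid responses 0 were called, and with the block 5 were higher, including SLC7A11 (0.65), SLC7A5 (0.61) and SLC3A2 (0.49), the subunits of amino acid exchangers. Of 22 YAP targets 0 were called, and with the block WWC1 (0.68) and IGFBP3 (0.56) were higher and the tissue factor gene F3 (-0.67) lower. Lists of 16 circadian clock, 19 hypoxia-inducible, 15 NRF2 target, 25 ion transport and mucin, and 22 squamous differentiation genes gave 0 calls, and with the block at most 1 in each direction.

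None of the 18 epithelial, 12 fibroblast, 10 leukocyte or 13 ciliated and secretory markers measured was called. With the block 3 epithelial markers were higher, KRT7 (0.62), CD24 (0.74) and JUP (0.33). Without replicate 3 the summed epithelial signal was 31720 to 39680 on Ind+GSK arrays and 27750 to 34020 on GSK arrays, and with it the upper ends were 436900 on Ind+GSK arrays and 461300 on GSK arrays, most of it KRT14. Fibroblast markers summed to 21800 to 26740 on Ind+GSK arrays and 21240 to 26570 on GSK arrays, and leukocyte markers to 1116 to 1474 on Ind+GSK arrays and 962 to 1211 on GSK arrays. Ciliated and secretory markers summed to 8142 to 10070 on Ind+GSK arrays and 9314 to 10520 on GSK arrays. The leukocyte genes PTPRC, NKG7 and TYROBP and the airway genes FOXJ1, SCGB3A1, BPIFB1 and MUC5B averaged below 37.5, the lowest lower quartile of any of the 8 arrays. In such bulk samples fewer cells of a type and less RNA per cell cannot be told apart, and the part of these markers in the results was not tested.

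Further genes passed only with the block. Besides those named above, the greatest rises without overlap were NCKAP5 (1.15), the apoptosis activator HRK (1.15), the membrane glycoprotein gene CD200 (1.15), NETO1 (1.11) and the transcriptional coactivator CITED4 (0.91). CD200 had 2587, 2042, 1774 and 2257 in Ind+GSK cells against 1160, 1091, 607.2 and 1098 in GSK cells (adjusted p = 1.23e-09 with the block and 0.119 without). The greatest falls were PRICKLE1 (-0.64) of planar cell polarity, LOC100505912 (-0.60), TET1 (-0.58), which oxidises methylcytosine, the glycolytic regulator PFKFB4 (-0.51), TMT1B (-0.50), ARHGAP18 (-0.49), LSS (-0.44) and MIR210HG (-0.43), the host transcript of a hypoxia-linked microRNA. LOC100505912 was at or below a signal of 27.25 on all 8 arrays, where its change is uncertain.

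The effect of indacaterol with PDE4 inhibited was set beside that without the inhibitor, indacaterol alone (Ind) against vehicle (Vehicle) at 6 h, which shares no arrays with it. There 54 genes (0.273%) were called, 45 higher and 9 lower. Of the 71 genes called with GSK present, 42 (59.2%) were called there too, which is 77.8% of the 54. For 70 of the 71 the sign was the same, against 67.4% of all genes. CSGALNACT1 changed by 2.84 with GSK present and 2.58 without it, CRISPLD2 by 2.65 and 2.89, SLC7A2 by 1.80 and 1.70, LINC00473 by 1.82 and 1.99, and PDE7B by 1.62 and 1.95. The difference between the effects was 0.26 (95% interval -0.46 to 0.98) for CSGALNACT1, -0.25 (-1.29 to 0.79) for CRISPLD2, 0.10 (-0.45 to 0.65) for SLC7A2 and -0.33 (-0.96 to 0.30) for PDE7B. These intervals are wide, and none of these differences passed.

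Tested over all genes, the difference between the effects gave 0 calls in limma (0.0%) both with and without the replicate block. An unadjusted p under 0.05 was found for 259 genes (403 with the block), fewer than a share of 0.05 of the 19775 tested. HES5, a Notch-pathway repressor, was the exception in sign. It had 176.6, 197.1, 177.9 and 172.6 in Ind+GSK cells against 105.2, 103.2, 130 and 118.8 in GSK cells, a rise of 0.60 ± 0.13 (adjusted p = 0.0116). This call was lost without replicates 1, 2 and 4 (adjusted p = 0.111, 0.274 and 0.106) and with 3 of the 8 single arrays left out. With indacaterol alone HES5 had 120.4, 112.4, 130.4 and 92.41, against 141, 119.1, 123.3 and 152.5 with vehicle, a change of -0.21. The difference of 0.81 (95% interval 0.44 to 1.18) did not pass (adjusted p = 0.997, and 0.557 with the block). The interferon-stimulated genes, 28 measured, had a median change of 0.017 and 0 calls in either fit with GSK present. Without it their median was -0.43, with 0 called and 4 lower with the block (0.657% of all genes), and none of the 28 differed between the effects in the test over all genes.

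**Figure D3:**
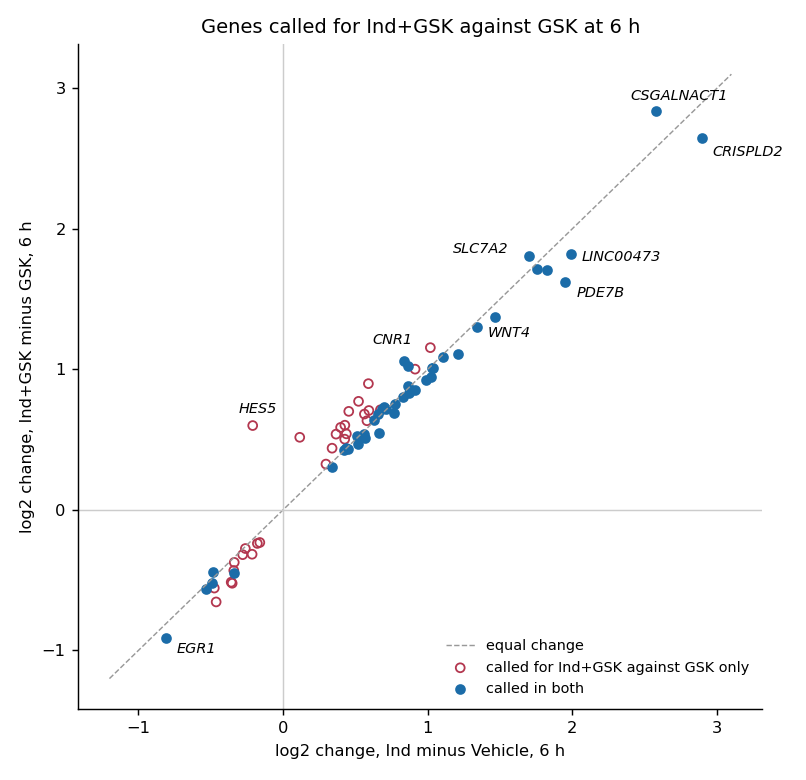
Log2 change at 6 h with GSK present (vertical) against that without it (horizontal) for the 71 genes called in Ind+GSK against GSK; filled points were called in both comparisons and the dashed line marks equal change. CSGALNACT1 and CRISPLD2 lie at the top right near the line, and HES5 is the only one of the 71 with opposite signs.

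The 6 h response was then set against the same comparison at 1, 2 and 18 h. Ind+GSK against GSK gave 28 calls (0.142%) at 1 h, 183 (0.925%) at 2 h and 0 (0.0%) at 18 h. At 18 h 406 genes had an unadjusted p under 0.05, fewer than a share of 0.05 of the 19775 tested. With the block limma called 95 (0.48%) at 1 h, 685 (3.46%) at 2 h and 19 (0.0961%) at 18 h, beside the 606 at 6 h. Of the 71 genes, 26 were also called at 2 h (36.6% of the 71 and 14.2% of the 183) and ITPRIP at 1 h as well. The other 45 were called at 6 h and at no other time, a count of calls and not a test of the differences. The median change of the 55 rises was 0.058 at 1 h, 0.46 at 2 h, 0.72 at 6 h and 0.18 at 18 h. These rises were selected at 6 h, so the height of their median at that time is a description.

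The differences between times were tested directly. The 6 h effect differed from that at 1 h for 9 genes (0.0455%), 7 greater and 2 lower, and from that at 2 h for 6 genes (0.0303%), 3 greater and 3 lower. The 18 h effect was lower than that at 6 h for 3 genes (0.0152%). With the block the counts were 101 (0.511%), 86 (0.435%) and 49 (0.248%), and without replicate 3 they were 18 (0.091%), 16 (0.0809%) and 8 (0.0405%). CSGALNACT1 was called in all of these, and it was the only gene that kept each of these calls with any 1 replicate number left out. Its mean signal was 134.6, 137.6, 1102 and 148.6 in Ind+GSK cells at 1, 2, 6 and 18 h, and 125.3, 119.7, 134.5 and 135.3 in GSK cells. Only the 6 h Ind+GSK arrays were high, and the effect at 6 h exceeded that at 1 h by 2.76 ± 0.36 (adjusted p = 8.41e-06) and that at 2 h by 2.68 ± 0.36 (adjusted p = 1.84e-05). The 18 h effect minus the 6 h effect was -2.69 ± 0.36 (adjusted p = 1.67e-05).

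The PDE7B effect was -0.07 at 1 h, 0.05 at 2 h, 1.62 at 6 h and 0.72 at 18 h, and the 6 h effect exceeded that at 2 h by 1.57 ± 0.31 (adjusted p = 0.0245). For EPHA5 the excess over 2 h was 1.12 ± 0.22 (adjusted p = 0.0171). SLC7A2 was already up at 2 h (1.34, adjusted p = 8.9e-06), and its 18 h effect was lower than its 6 h effect by a change of -1.42 ± 0.27 (adjusted p = 0.0239). For KLHL29, called at 6 h and not at 2 h, the 18 h effect minus the 6 h effect was -0.77 ± 0.15 (adjusted p = 0.0239). CRISPLD2 had an effect of -0.01 at 1 h, 2.39 at 2 h, 2.65 at 6 h and 0.65 at 18 h, and GALNT15 of -0.07, 0.57, 1.71 and 0.53. Their excess over 1 h, 2.65 ± 0.52 (adjusted p = 0.0157) for CRISPLD2 and 1.79 ± 0.37 (adjusted p = 0.0297) for GALNT15, was called. The GALNT15 call was lost with any 1 replicate number left out (adjusted p = 0.185 to 0.649), and that of CRISPLD2 without replicates 2, 3 and 4. The calls of PDE7B against 2 h and of KLHL29 were lost without replicates 1, 2 and 4. That of EPHA5 against 2 h was lost without replicates 1, 3 and 4, and that of SLC7A2 at 18 h against 6 h without replicates 2 and 4.

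Other genes had a lower effect at 6 h than before. TRIB1, a pseudokinase among the CREB targets, had mean signals of 1800, 1267, 497.3 and 370.6 in Ind+GSK cells at 1, 2, 6 and 18 h, and 502.1, 483.6, 368.7 and 369.2 in GSK cells. Its 6 h effect minus its 1 h effect was -1.37 ± 0.26 (adjusted p = 0.0146). CSRNP1, a nuclear protein induced early, gave -0.87 ± 0.18 (adjusted p = 0.0416). Against 2 h, the transcription factor TBX3 gave -1.22 ± 0.20 (adjusted p = 0.00114), LRRC75A -1.31 ± 0.25 (adjusted p = 0.0171) and AGFG2 -0.78 ± 0.16 (adjusted p = 0.0245). The 6 h changes of these 5 genes, 0.43, -0.17, 0.41, -0.31 and -0.15 in the order named, did not pass in either fit, although a second, dimmer probe set of TBX3 rose by 0.61 (adjusted p = 0.0107). The difference between times lost its call for CSRNP1 with any 1 replicate number left out (adjusted p = 0.123 to 0.846). For TRIB1, TBX3, LRRC75A and AGFG2 it lost its call without replicates 1, 2 and 4. LINC00473 had an effect of 1.38 at 1 h, 2.68 at 2 h, 1.82 at 6 h and 0.64 at 18 h, and of its differences between 6 h and the other times, the lower effect at 18 h passed with the block alone (adjusted p = 0.0331).

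**Figure D4:**
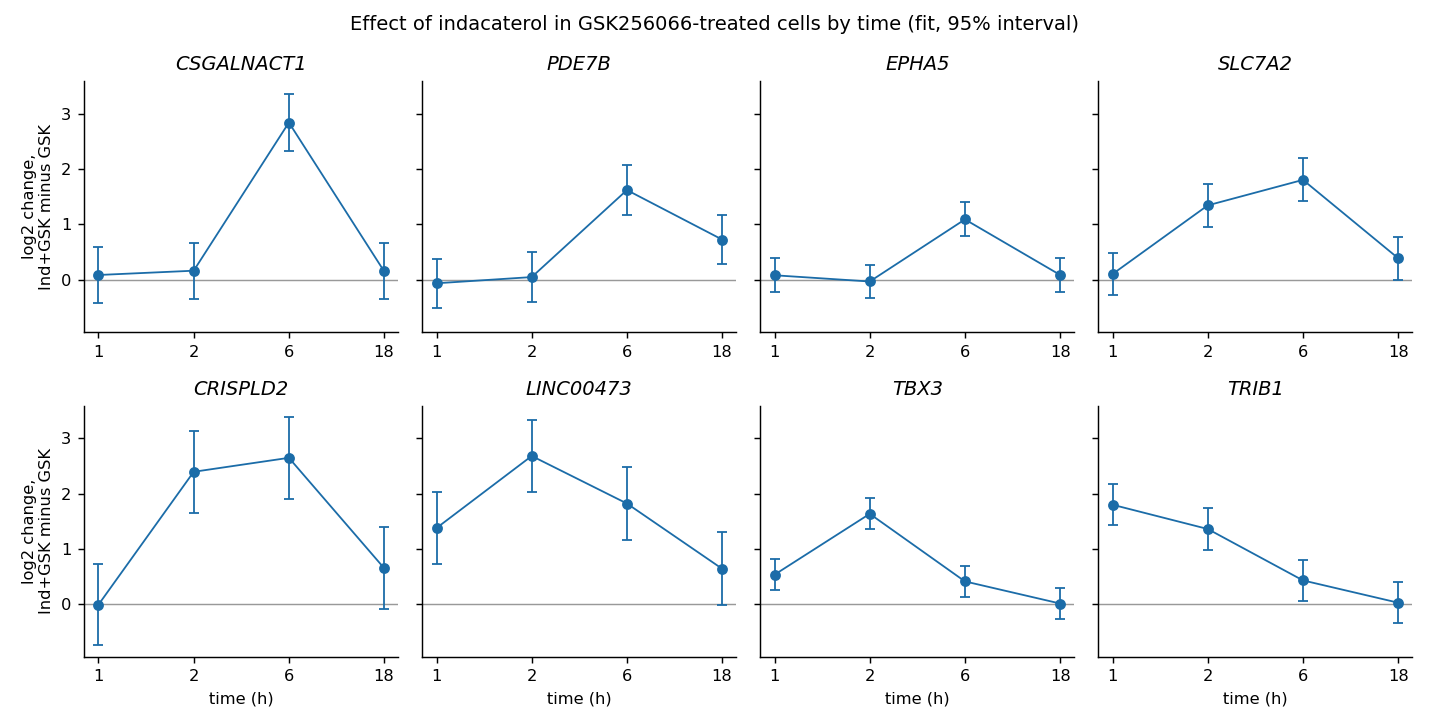
Log2 change of Ind+GSK against GSK (points, with 95% intervals from the fit) at 1, 2, 6 and 18 h for 8 genes; the time axis is not to scale. CSGALNACT1, PDE7B and EPHA5 are near 0 at 1 and 2 h and stand at 2.84, 1.62 and 1.09 at 6 h, SLC7A2 and CRISPLD2 are high at 2 and 6 h, and TBX3 and TRIB1 are highest at 2 and 1 h.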

How the data were processed

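The authors deposited a linear intensity for each probe set. Software listed in the submitters' processing notes is Transcriptome Analysis Console 4 and PLIER; their settings are not given in the sources used here. Of 54675 probe sets, 41091 had 1 gene symbol, 1801 several and 11721 none in GEO's platform annotation, and 62 were controls. For each of 19775 symbols (updated through the gene ID) the probe set with the highest mean log2(signal + 16) was tested. One limma model (3.58.1, R 4.3.3) with a mean per group was fitted to all 64 arrays (48 residual degrees of freedom) and tested two-sided with eBayes, adjusting p by Benjamini-Hochberg. The fit was tested on simulated data.

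Genes named are the 15 greatest rises and falls among calls without overlap between groups, 8 each called only with the replicate block, 3 per sign for each difference between times, and members of 23 lists, plus genes of other calls chosen after their values were seen (ITPR1, CSNK1E, NPC1, HES5). Members and lists were chosen with earlier results of these data known. For the block, replicate numbers were taken to pair arrays because all 4 correlations of same-numbered deviations exceeded 0.1, though the labels do not say what the numbers mark. Some arrays of different number exceeded 0.1 as well, so this rule cannot establish pairing. The main fit used no block. Alternatives were the pseudocount, quantile normalization, the mean of probe sets, a minimum signal, fewer arrays, the block and arrays left out. Depth has no meaning for arrays, and 4 per group limit the precision. Promoters were matched by symbol.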

Additional observations from a re-analysis of the deposited data

Results flagged for a closer look

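Within groups of 4 arrays, 1 array lay far from the other 3 for 8 of the 108 gene and group pairs looked at, where chance gives about 1 in 20. On the GSK arrays these were GALNT15 in replicate 1 (363.8, high), CNR1 in replicate 4 (756.3, high), ARHGAP18 in replicate 2 (1277, high), and HRK (113.9, low) and CD200 (607.2, low) in replicate 3. On the Ind+GSK arrays they were TANC2 (2448, low) and NDE1 (1061, low) in replicate 3 and LOC100505912 in replicate 1 (1.479, low).

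The effect of indacaterol with PDE4 inhibited differed between times for the genes described above. The 6 h effect minus the 1 h effect was 2.76 for CSGALNACT1, 2.65 for CRISPLD2, 1.79 for GALNT15, -1.37 for TRIB1 and -0.87 for CSRNP1. The 6 h effect minus the 2 h effect was 2.68 for CSGALNACT1, 1.57 for PDE7B, 1.12 for EPHA5, -1.31 for LRRC75A, -1.22 for TBX3 and -0.78 for AGFG2. The 18 h effect minus the 6 h effect was -2.69 for CSGALNACT1, -1.42 for SLC7A2 and -0.77 for KLHL29.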

How the results depend on the processing

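The count of 71 genes became 606 with replicate number as a block, 1005 with the block within each time, 291 with the block and no replicate 3, 156 with quantile normalization, 18 from the 16 arrays at 6 h alone and 4 from the 8 arrays compared. With single arrays or replicate numbers left out it ran from 25 to 87 (31, 27 and 25 without replicates 1, 2 and 4). The difference from indacaterol alone had 0 calls in every setting run. From 131 to 462 genes had an unadjusted p under 0.05, in each setting fewer than a share of 0.05 of the genes tested. The 6 h minus 1 h count of 9 became 101 with the block, 209 with it within time and 73 with it without replicate 3, and ran from 1 to 18 with arrays left out. The 6 h minus 2 h count of 6 became 86, 264 and 81 with those blocks and 3 with the mean of probe sets, and ran from 1 to 16. The 18 h minus 6 h count of 3 became 49, 218 and 43 with the blocks and 5 with quantile normalization, and ran from 1 to 8. Of the 30 named rises and falls, 16 kept the call with any single array left out, and 9 with any replicate number left out as well: CSGALNACT1, CRISPLD2, SLC7A2, GALNT15, PDE7B, EPHA5, IGF1R, KCNG1 and C1orf198. From the 8 arrays alone CSGALNACT1, SLC7A2, STEAP4 and EPHA5 were called. No named change reversed its sign in these settings. Fewer arrays leave fewer degrees of freedom, but the cause of the shifts in counts, in either direction, was not tested.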
